A study of Mus musculus with 2 samples.

Results

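The anti-Rtl1 microRNAs are the mature products of 5 hairpins, miR-431, miR-433, miR-127, miR-434 and miR-136, that lie antisense to the gene Rtl1 in the imprinted Dlk1-Dio3 locus of the mouse. They were taken by name, as the 5p and the 3p arm of each hairpin, and all 10 were found among the 1909 mature microRNAs of both deposited files. Small RNA was sequenced from cultured vascular smooth muscle cells of the thoracic aorta of male mice aged 10 to 12 weeks. The control was the db/+ mouse (Lepr+/-), and the diabetic mouse was db/db (BKS.Cg-m+/+Leprdb/J), whose leptin receptor cannot signal and which grows obese and type 2 diabetic. Cells of both genotypes were grown in medium with 10% fetal bovine serum, so the values describe cultured cells and not the vessel wall. There was 1 library per genotype, and the sources used here do not give the number of mice behind each culture. A difference between the genotypes therefore could not be tested, and every difference below is between these 2 libraries. Because each library is a bulk sample, fewer cells of a type and less RNA per cell cannot be told apart.

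In the Dlk1-Dio3 locus, the protein-coding genes Dlk1, Rtl1 and Dio3 are expressed from the paternal chromosome, and long noncoding RNAs with their many microRNAs from the maternal one. Rtl1 derives from a retrotransposon and is best known for its role in the placenta and in fetal muscle. Because the anti-Rtl1 microRNAs are made from the opposite strand of its coding exon, they pair with Rtl1 mRNA without mismatches and can direct its cleavage, while on other mRNAs they act like ordinary microRNAs through the seed. The 2 arms of a hairpin are cut from the same precursor, and usually one of them is kept in the silencing complex while the other is degraded.

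The mature sequences are shown because the seed (bases 2 to 8, in capitals) sets which mRNAs a microRNA can reach. They are given 5′ to 3′ as listed by RefSeq on GRCm38.p6, in the order of the hairpins along the chromosome, and all 10 names were matched. The prefix mmu- (mouse) is left out of names in the text.
mmu-miR-431-5p: uGUCUUGCaggccgucaugca
mmu-miR-431-3p: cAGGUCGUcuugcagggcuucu
mmu-miR-433-5p: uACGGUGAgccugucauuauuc
mmu-miR-433-3p: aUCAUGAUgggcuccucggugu
mmu-miR-127-5p: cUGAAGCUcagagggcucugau
mmu-miR-127-3p: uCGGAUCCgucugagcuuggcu
mmu-miR-434-5p: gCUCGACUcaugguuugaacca
mmu-miR-434-3p: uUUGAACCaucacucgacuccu
mmu-miR-136-5p: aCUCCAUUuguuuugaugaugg
mmu-miR-136-3p: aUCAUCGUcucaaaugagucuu

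The 10 seeds were all distinct, and 0 other mature names in the sequence table carried any of them, so the group shares a locus and not a seed. The longest run shared by any pair of members was 10 bases, GUCUUGCAGG, in the arms of miR-431. The arms of miR-434 shared 9 bases, UUUGAACCA. Against the other names of the files that had a sequence (1623 of the 1909 names had one), the closest relative of any member was 6 edits away, where an edit is a substituted, inserted or missing base. No other name with at least 50 counts had the same pair of counts as a member, in contrast to families whose reads stand on several names.

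The 5 hairpins lie within 4.94 kb on the plus strand of chromosome 12. Their positions on GRCm38, counted from 1, are chr12:109590447-109590537 for miR-431, chr12:109591715-109591838 for miR-433, chr12:109592846-109592915 for miR-127, chr12:109594506-109594599 for miR-434 and chr12:109595327-109595388 for miR-136. In GENCODE M21, Rtl1 runs on the minus strand (chr12:109589193-109600330) with 2 exons, and each hairpin falls inside its 1744-codon coding sequence. No gene other than a microRNA gene was annotated on the plus strand so as to contain any of them. Each of the 10 mature sequences had exactly 1 perfect antisense match in the Rtl1 transcript. The sites of the 3 most abundant members are shown as Rtl1 reads them, 5′ to 3′, with the match to the seed in capitals.
Rtl1 codons 832 to 839, facing miR-127-3p: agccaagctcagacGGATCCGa
Rtl1 codons 1201 to 1208, facing miR-433-3p: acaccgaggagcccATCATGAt
Rtl1 codons 273 to 280, facing miR-434-3p: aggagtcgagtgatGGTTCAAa

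Rtl1 mRNA itself was not measured in these libraries. A sixth name of the region, miR-3071, comes from the minus strand opposite miR-136, and both of its arms had 0 counts in both libraries.

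In total 25915732 microRNA reads were counted for db/+ and 24295112 for db/db. Levels are given as CPM, counts per 1000000 microRNA counts of the library, and a microRNA with 0 counts could still reach 0.116 CPM (db/+) or 0.123 CPM (db/db), the level of 3 counts. Intervals are exact 95% intervals of counting error. The reads carry no molecular identifiers and are PCR copies, so these intervals do not cover the spread between mice or between cultures. The smooth muscle markers miR-143 and miR-145a summed to 1656 CPM (db/+) and 1567 CPM (db/db), with 4 of 4 names detected. Of the 4 endothelial names (miR-126a and miR-126b), 3 were detected, with a sum of 0.309 CPM for db/+ and 2.92 CPM for db/db. The ratio of these sums was 9.47 (4.55 to 22.8). From db/+ to db/db, miR-126a-5p went from 2 to 58 counts and miR-126a-3p from 5 to 13. The 9 blood names had 3 detected and summed to 0.695 and 0.700 CPM, and the 14 epithelial names had 8 detected and summed to 0.540 and 1.23 CPM. Of 5 neural names 4 were detected, at 248 and 202.5 CPM, mostly miR-128-3p (ratio 0.874), but the rarer ones differed widely. Between db/+ and db/db, miR-9-5p went from 347 to 19 counts and miR-9-3p from 5.94 to 0.453 CPM, while miR-124-3p went from 28 to 61 counts, so 2 of the 4 were past 2-fold on the lower side and 1 on the higher. The 6 striated muscle names summed to 2473 and 2765 CPM, nearly all miR-206-3p, while miR-133b-3p, miR-208a-3p and miR-208b-3p were at 0. The part of other cell types in the values below was not tested.

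The anti-Rtl1 microRNAs together reached 919 CPM in db/+, from 23825 counts, and 1249 CPM in db/db, from 30333 counts, or 0.0919% and 0.125% of all microRNA counts. The ratio of db/db over db/+ was 1.36 (95% interval 1.34 to 1.38). The 3p arms of miR-433, miR-127 and miR-434 held 96.6% (db/+) and 97.4% (db/db) of these counts. The sum thus describes those 3 microRNAs, and without miR-434-3p its ratio was 1.47. The other 7 members summed to 31.1 CPM (db/+) and 32.3 CPM (db/db), and their ratio was 1.04 with an interval of 0.939 to 1.15.

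miR-127-3p, the member best known from studies of imprinting and as a repressor of the transcription factor Bcl6, was at 361 CPM in db/+ (9365 counts) and at 565 CPM in db/db (13733 counts). It ranked 50 by abundance among the microRNAs of db/+ and 41 among those of db/db. Its ratio of 1.56 (1.52 to 1.61) was the highest of the 10, and its intervals in the 2 libraries did not overlap. miR-433-3p, reported to repress the deacetylase Hdac6, was at 385 CPM in db/+ (9981 counts) and at 542.9 CPM in db/db (13191 counts), with a ratio of 1.41 (1.37 to 1.45). The order of these 2 microRNAs differed between the libraries. In db/+, miR-433-3p was above miR-127-3p, with intervals of 378 to 393 CPM and 354 to 368.8 CPM. In db/db, miR-127-3p was above, with 556 to 575 CPM against 534 to 552 CPM for miR-433-3p. The counts of miR-127-3p over those of miR-433-3p thus went from 0.938 in db/+ to 1.04 in db/db. This order was not corrected for GC content, which is 59.1% for miR-127-3p and 54.5% for miR-433-3p. With a linear trend on GC content removed, their ratios of db/db over db/+ were closer together, at 1.32 and 1.29. Whether the order would still differ was not tested.

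miR-434-3p, reported in skeletal muscle to limit cell death through the translation factor Eif5a, lay on the other side of 1. It was at 142 CPM in db/+ (3673 counts, rank 74) and at 108 CPM in db/db (2625 counts, rank 87). The ratio was 0.762 (0.725 to 0.802), and it was 0.794 to 0.815 under the 5 other scalings tried. Those scalings shifted all log2 ratios by 0.06 to 0.10, too little to bring this ratio to 1, so they do not test its side. Its hairpin begins 1.66 kb from that of miR-127 on the same strand. There were 2.55 counts of miR-127-3p per count of miR-434-3p for db/+ and 5.23 for db/db, a comparison that does not depend on scaling. These 2 microRNAs differ in GC content (59.1% and 45.5%), which moved with the ratio in these libraries. The comparison was not corrected for it.

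The remaining 7 members had between 39 and 200 counts in a library, and their levels ran from 1.58 to 7.72 CPM. miR-136-5p led them, at 7.72 CPM in db/+ (200 counts) and 7.57 CPM in db/db (184 counts), with a ratio of 0.981 (0.799 to 1.20). Its 3p arm had 44 and 39 counts and a ratio of 0.945 (0.598 to 1.49), and it was the only member under 50 counts in both libraries. Both ratios of miR-136 were below 1 with scaling to the library total, but miR-136-5p was above 1 under each of the 5 other scalings (1.02 to 1.05), and miR-136-3p under 4 of them.

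The minor arms of the 3 abundant hairpins sat close together. miR-127-5p was at 6.21 CPM in db/+ (161 counts) and 7.04 CPM in db/db (171 counts), with a ratio of 1.13 (0.908 to 1.41). miR-433-5p had 145 and 125 counts (5.60 and 5.15 CPM), a ratio of 0.920 (0.718 to 1.18). miR-434-5p was at 4.28 CPM, from 111 counts, and 5.52 CPM, a ratio of 1.29 (0.994 to 1.67). With scaling to the library total, all of these intervals include 1, so a difference between the libraries was not detectable at this depth. For miR-434-5p this depends on scaling, since its lower bound of 0.994 is near 1. Its ratio was 1.34 to 1.38 under the 5 other scalings, where no intervals were computed.

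For miR-431, known in muscle stem cells as a repressor of Pax7, the 2 arms pointed in opposite directions. The 5p arm was at 4.01 CPM in db/+ (104 counts) and 2.96 CPM in db/db (72 counts), with a ratio of 0.738 (0.539 to 1.01). The 3p arm was at 1.58 CPM in db/+ (41 counts) and 2.43 CPM in db/db (59 counts), with a ratio of 1.54 (1.01 to 2.35). It passed the 50-count floor through the db/db library alone, where it was higher.

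**Figure D1:**
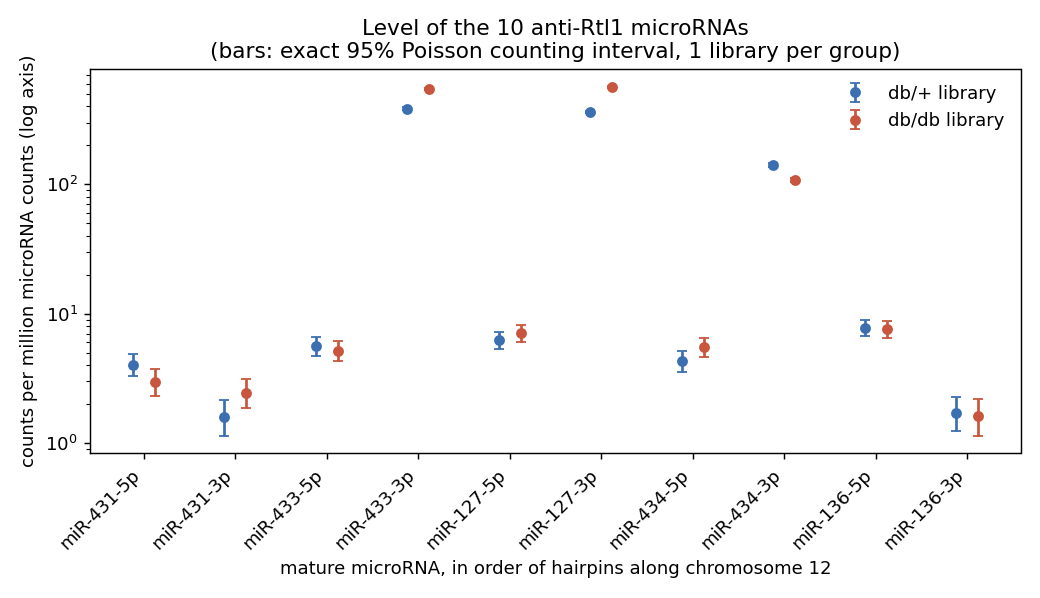
Level of each anti-Rtl1 microRNA in the db/+ library (blue) and the db/db library (red), in CPM on a log axis; bars are exact 95% Poisson counting intervals. The 3p arms of miR-433, miR-127 and miR-434 stand above 100 CPM in both libraries, and the other 7 members lie under 8 CPM.

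By level, the order in db/+ after the 3 abundant members was miR-136-5p, miR-127-5p, miR-433-5p, miR-434-5p, miR-431-5p, miR-136-3p and miR-431-3p. The counting intervals of each of these neighbours overlapped, as from 6.68 to 8.86 CPM for miR-136-5p and 5.29 to 7.25 CPM for miR-127-5p, except that miR-431-5p (3.28 to 4.86 CPM) was clear of miR-136-3p (1.23 to 2.28 CPM). No scaling by length was applied, since the mature forms are all 21 or 22 bases long.

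The size of a difference was judged by a rule in place of a test, a ratio of 2 or more, or of 0.5 or less, where a microRNA had 50 or more counts in either library. Of the 10 members, 9 reached 50 counts, and 0 of them were 2-fold higher and 0 were 2-fold lower in db/db. Over all 356 microRNAs past that floor, 4.49% were 2-fold higher or more and 13.5% were 2-fold lower or more. At 1.5-fold, 2 members were higher (miR-127-3p and miR-431-3p, the latter on 41 and 59 counts) and 0 were lower, against 13.5% and 24.2% of all. The counting interval lay above 1 for 3 members (miR-127-3p, miR-433-3p and miR-431-3p) and below 1 for 1 (miR-434-3p), against 31.7% and 44.1% of all. This tally is for scaling to the library total, and miR-434-5p, with a lower bound of 0.994, lay near its edge. For miR-431-3p the lower bound was 1.01, and it reached 50 counts only in db/db, where it was higher. Its place in these tallies is therefore no support for a difference. Among all 10, 5 ratios were above 1 and 5 below, the latter including both arms of miR-136, whose side depended on scaling as given above. The median log2 ratio of the 9, with 0.5 counts added, was 0.18, and over all 10 it was 0.08. Over all 356 microRNAs the median was -0.14, and 43% of their ratios were above 1.

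**Figure D2:**
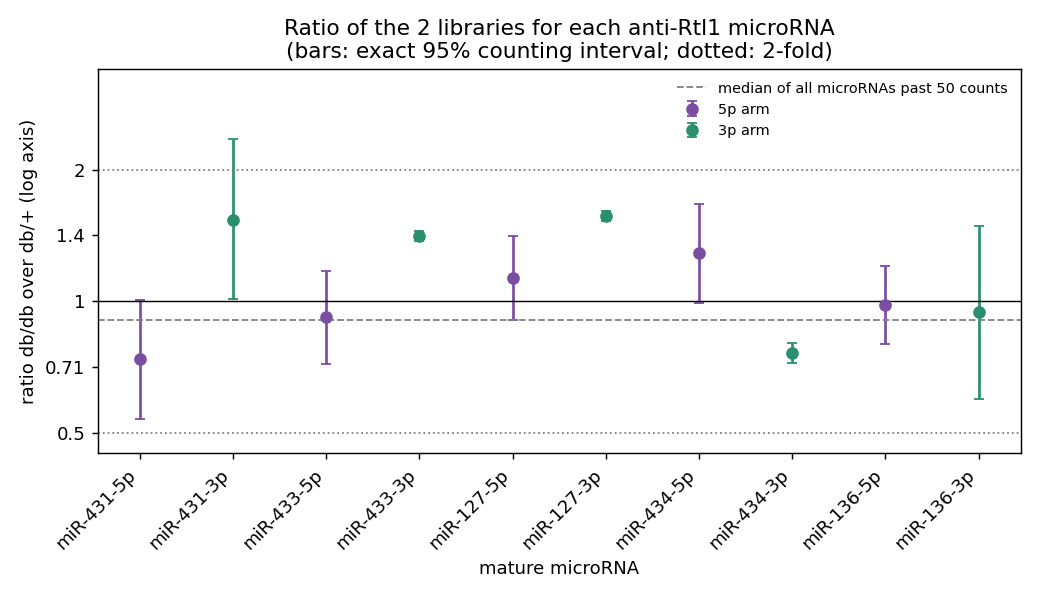
Ratio of db/db over db/+ for each member on a log axis, with exact 95% counting intervals, 5p arms in purple and 3p arms in green; dotted lines mark 2-fold and the dashed line the median of all microRNAs with at least 50 counts. The ratios of miR-433-3p and miR-127-3p stand at 1.41 and 1.56 with narrow intervals, that of miR-434-3p at 0.762, and no ratio reaches 2-fold.

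Arm usage compares the 2 products of one hairpin inside a library, and so does not depend on how libraries are scaled. It was not corrected for the GC content of the arms, which is given below. The hairpins of miR-434, miR-433 and miR-431 are shown because the ratios of their 2 arms lay on opposite sides of 1. With scaling to the library total, however, the intervals of miR-434-5p, miR-433-5p and miR-431-5p include 1. Both mature arms are in capitals, the 5p arm first.
miR-434 hairpin: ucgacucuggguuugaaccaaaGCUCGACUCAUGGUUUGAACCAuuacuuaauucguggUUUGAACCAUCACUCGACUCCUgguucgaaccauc
miR-433 hairpin: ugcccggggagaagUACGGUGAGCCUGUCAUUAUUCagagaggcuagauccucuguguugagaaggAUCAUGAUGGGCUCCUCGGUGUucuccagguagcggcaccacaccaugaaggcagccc
miR-431 hairpin: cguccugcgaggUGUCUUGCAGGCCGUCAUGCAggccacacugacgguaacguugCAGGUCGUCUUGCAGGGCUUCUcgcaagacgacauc

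The 3p arm was the major product of miR-433, miR-127 and miR-434, and the 5p arm of miR-431 and miR-136, in both libraries. Each of the 5 major arms begins with A or U, as do 2 of the 5 minor arms, miR-433-5p and miR-136-3p. For miR-434, the 5p arm took 2.93% of 3784 counts for db/+ (2.42 to 3.52) and 4.86% of 2759 counts for db/db (4.08 to 5.73). Its 3p arm thus outnumbered the 5p arm 33.1-fold in db/+ and 19.6-fold in db/db. In miR-433 the share went the other way, from 1.43% of 10126 counts for db/+ (1.21 to 1.68) to 0.939% of 13316 for db/db (0.782 to 1.12). The 5p share of miR-127 was 1.69% (1.44 to 1.97) of 9526 counts and 1.23% (1.05 to 1.43) of 13904. The intervals of the 2 libraries were apart for these 3 hairpins, as they were for 26% of the 204 hairpins with at least 50 counts in each library. All 3 differences were under 2 percentage points.

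In miR-431 the 5p share was 71.7% of 145 counts for db/+ (63.7 to 78.9) and 55.0% of 131 counts for db/db (46.0 to 63.7). This is the widest gap of the 5 hairpins in percentage points, 16.8 lower in db/db, but the intervals touched at this depth. In miR-136 the 5p share was 82.0% (76.6 to 86.6) of 244 counts and 82.5% (76.9 to 87.3) of 223 counts.

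**Figure D3:**
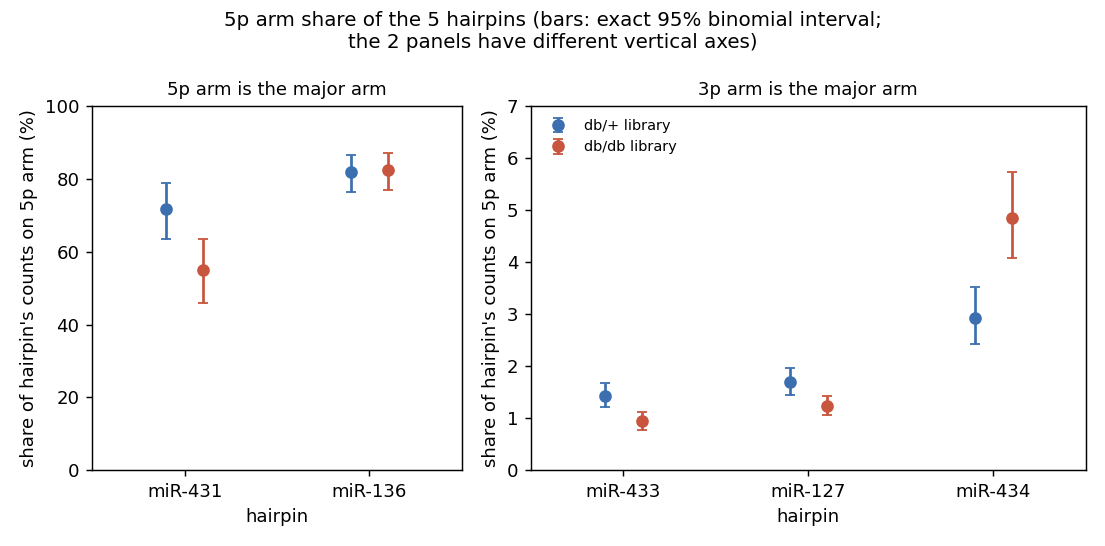
Share of each hairpin's counts on its 5p arm, in percent, in the db/+ (blue) and db/db (red) libraries, with exact 95% binomial intervals; the left panel runs to 100% and the right panel to 7%. The share of miR-434 is higher in db/db and those of miR-433 and miR-127 are lower, while that of miR-136 is 82.0% and 82.5%.

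The make-up of the group, again free of scaling but not corrected for GC content, differed between the libraries mainly through miR-434. Its hairpin gave 15.9% of the group's counts for db/+ (15.4 to 16.4) and 9.10% for db/db (8.77 to 9.42). The hairpin of miR-127 gave 40.0% (39.4 to 40.6) and 45.8% (45.3 to 46.4), and that of miR-433 gave 42.5% (41.9 to 43.1) and 43.9% (43.3 to 44.5). These shares sum to a whole, so a lower share of one hairpin raises the summed share of the others, though not each of them. Small parts came from miR-136, with 1.02% and 0.735%, and from miR-431, with 0.609% and 0.432%. As summed hairpins, the ratios were 1.56 for miR-127, 1.40 for miR-433, 0.778 for miR-434, 0.975 (0.809 to 1.17) for miR-136 and 0.964 (0.755 to 1.23) for miR-431. Along the chromosome the ratios thus followed no single direction.

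The other maternally expressed microRNAs of the locus give the setting. They were split into 15 names on the Meg3 side, 6 on the Rian side and 78 of the Mirg cluster. The Meg3-side names lie before the anti-Rtl1 hairpins along the plus strand. Of the 3 lists, 7, 3 and 42 names reached 50 counts. The anti-Rtl1 microRNAs made up 29.8% of the counts of the 3 lists and themselves in db/+ and 30.4% in db/db. Summed ratios were 1.19 (1.12 to 1.27) for the Meg3 side, 1.48 (1.40 to 1.56) for the Rian side and 1.32 (1.30 to 1.33) for the Mirg cluster, beside 1.36 for the anti-Rtl1 group. The median log2 ratios were 0.30, 0.39 and 0.14. On the Meg3 side 0 names were past 2-fold, 5 ratios were above 1 and 2 below. The most abundant there was miR-337-5p, with 1037 counts in db/+ and 1187 in db/db (ratio 1.22), followed by miR-770-3p (1.24) and miR-665-3p (1.29). On the Rian side 0 of 3 were past 2-fold and all 3 ratios were above 1.

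In the Mirg cluster miR-668-3p was past 2-fold on the higher side and miR-377-3p on the lower. This was 1 of 42 names on each side, against 4.49% and 13.5% of all 356 microRNAs. There were 23 ratios above 1 and 19 below. The 5p arms of miR-299a and miR-299b both had 572 counts in db/+, with 405 and 407 in db/db. Their 3p arms had 532 and 533 in db/+ and 611 each in db/db. These names may share reads, so the tally, the Mirg sum and the locus shares above may count some reads more than once. With a trend on GC content removed, miR-668-3p was no longer past 2-fold, which left 0 names on the higher side and 1 on the lower. Only names with a sequence, 74 of the 78 before the floor, could enter here. No share over all microRNAs was computed with this trend removed, so these counts have no background. Its 3 most abundant names had ratios close to those of miR-127-3p and miR-433-3p. They were 1.51 (1.47 to 1.56) for miR-541-5p, 1.48 (1.43 to 1.52) for miR-382-5p and 1.54 (1.49 to 1.60) for miR-543-3p. A spread of ratios to both sides of 1 was therefore also present in the Mirg cluster, where they ran from 0.339 to 2.28, and was not tested as a property of the anti-Rtl1 group.

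**Figure D4:**
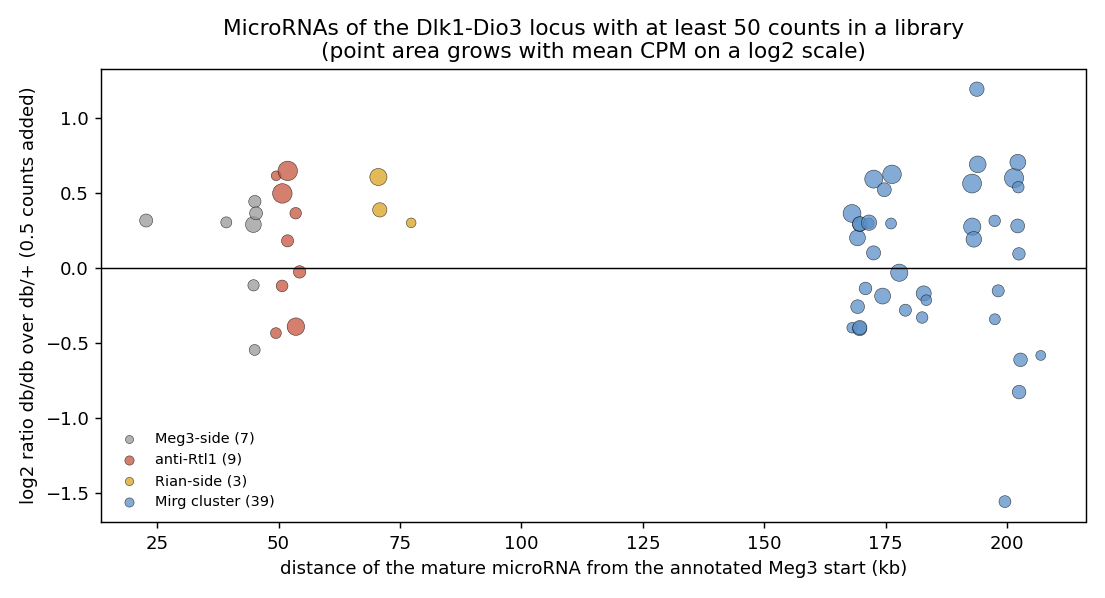
Log2 ratio of db/db over db/+ for the microRNAs of the locus with at least 50 counts in a library, against the distance of the mature form from the annotated Meg3 start in kb; colours mark the 4 parts and larger points the more abundant names, and 39 of the 42 Mirg names had a position. The anti-Rtl1 microRNAs (red) fall on both sides of 0, as do those of the Meg3 side and the Mirg cluster.

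By level in both libraries, the microRNAs closest to miR-127-3p were miR-298-5p, miR-181d-5p and miR-181a-5p. Closeness was the Euclidean distance of log2 CPM over the 2 libraries, and it was 0.22, 0.23 and 0.26. With 2 libraries such likeness means only a similar level and ratio. The ratio of miR-298-5p was 1.72 and that of miR-181d-5p was 1.54, while miR-181a-5p had 1.24. The last 2 belong to a family of near-identical sequences that may share reads.

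Base composition moved with the ratio in these libraries. Across the 286 of 356 microRNAs past the floor that had a sequence, the Spearman correlation of GC content with the log2 ratio was 0.38, as a description over names that share the same 2 libraries. Of the abundant members, miR-127-3p had a GC content of 59.1% and miR-433-3p 54.5%, and miR-434-3p had 45.5%, while both arms of miR-136 had 36.4%. With a linear trend on GC content removed, the ratio was 1.32 for miR-127-3p, 1.29 for miR-433-3p and 0.816 for miR-434-3p. That of miR-136-5p was 1.23 and that of miR-431-5p 0.645. The 3 abundant members thus kept their side of 1, with the ratios nearer to 1. In each hairpin except miR-136, whose arms were equal in GC content, the arm with more GC had the higher ratio. What part GC content had in the measured ratios and arm shares beyond this was not tested.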

How the data were processed

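Small RNA libraries of 2 groups, 1 per genotype, were compared. Each deposited file lists 1909 mature microRNAs with raw read counts and, per the file headers, reads normalized by TMM, the trimmed mean of M values. The normalized reads were whole numbers, so this deposited column was treated as a score and used only as an alternative scaling. Novoalign, edgeR and mm10 appear in the submitters' processing notes; trimming, mismatch limits and the treatment of reads matching several microRNAs are not given in the sources used here. Any of these could shift a level. Ratios are of counts over library totals, with exact conditional (Clopper-Pearson) 95% intervals; arm shares carry exact binomial (Clopper-Pearson) intervals. With 1 library per group no test could be fitted. The computation was checked on simulated counts. Sequences and positions came from RefSeq (GRCm38.p6) and GENCODE M21, on the assembly also called mm10. Named microRNAs were all members, the 3 most abundant Meg3-side and Mirg names, the 3 closest to miR-127-3p and any counted name sharing a member's seed; others were named after their values were seen. Members and lists were chosen with earlier results of these data known. Python 3.11.15, scipy 1.17.1, edgeR 4.0.16 and DESeq2 1.42.0 (both for scaling factors only) were used.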

Additional observations from a re-analysis of the deposited data

How the results depend on the processing

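Other scalings shifted all log2 ratios by 0.06 to 0.10. The deposited normalized reads are also TMM scaled, and their shift of 0.09 was that of the edgeR TMM factors. The summed ratio of the 10 members was 1.44 with edgeR TMM factors and with the deposited normalized reads, 1.45 with DESeq2 size factors, 1.45 with upper-quartile factors and 1.41 without the 10 most abundant microRNAs. It was 1.32 without miR-433-3p, the member with the most counts, and 1.47 without miR-434-3p, the last chosen after seeing the data, as was the GC trend. At 1.5-fold, 2 members were higher, miR-127-3p and miR-431-3p, the latter past the floor only through db/db. Over all 356 microRNAs past the floor, 13.5% were 1.5-fold higher or more and 24.2% lower. On the Rian side, 1 name was higher and 1 lower with no floor, and 1 was higher at 1.5-fold. In the Mirg cluster the higher names numbered 5 with no floor, 3 at a floor of 10 and 6 at 1.5-fold. The lower names numbered 8, 2 and 5 at these settings. With the GC trend removed, 0 names were higher. The 1.5-fold counts of the Mirg cluster are of 42 names, and that of the Rian side is of 3. They stand beside the 13.5% and 24.2% of all. No share over all microRNAs was computed with no floor, at a floor of 10 or with the GC trend removed, so those counts have no background. The counts at other floors and at 1.5-fold follow the threshold by construction, while removing the GC trend changed the ratios themselves. The other 84 alternative values that answer a comparison stayed within their interval or 1.5-fold. The members' median log2 ratio ran from 0.08 (floors of 0, 10 and 100 counts) to 0.30 (GC trend removed). Of the alternative ratios of single members, 42 stayed inside the counting interval and 18 left it, none of them across 1 except miR-136-5p with the GC trend removed; the cause was not tested beyond the shift itself. No paired analysis was possible because there was a single library for each genotype, which also left nothing to compare once one was dropped. Depth limits the 7 members under 8 CPM.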
